A study of Caenorhabditis elegans with 2 samples.

Results

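EFL-1 is one of the E2F-family transcription factors of Caenorhabditis elegans, and chromatin immunoprecipitation with sequencing recorded where it sat in the genome of first-stage (L1) larvae. The peaks described here are those whose summit, the single base the authors marked as the top of a peak, lay close to the start of 1 gene and in the promoter of no other. A promoter was taken as 500 bp upstream to 100 bp downstream of any annotated transcript start of a protein-coding gene, the X chromosome was left out, and the summit had to lie less than 250 bp upstream or at most 100 bp downstream of the nearest start of its gene. The rule used places only, and 1021 of the 3824 reproducible peaks met it (26.7%, 95% Wilson interval 25.32% to 28.12%). They belonged to 1011 genes, which is 5.86% of the 17242 autosomal protein-coding genes, where a promoter peak of any kind was present at 16.1%.

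The series held 1 group of 2 libraries, biological replicates 1 and 2. Both came from whole, mixed-sex L1 larvae of strain YL424, which carries the unc-119(ed3) mutation and the inserted transgene vrIs68, in which EFL-1 fused to GFP and FLAG is driven by the efl-1 promoter with the efl-1 3′ untranslated region, next to a working copy of unc-119. The fusion is an added copy, so its sites need not match those of the native protein in amount, and whole larvae mix all tissues. The files were lists of peaks, from which depth cannot be read, and with 1 group no test between conditions could be made. All intervals given are for counting error alone.

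E2F proteins pair with a DP partner and bind GC-rich sites at the promoters of genes for DNA synthesis and cell division. In C. elegans, EFL-1 and DPL-1 join an Rb-like pocket protein and the MuvB subunits in the DREAM complex, which represses many of its targets. MuvB contacts DNA through LIN-54, which recognises the cell cycle genes homology region, or CHR, with the cores TTTGAA (called the T form here) and TTCGAA (the C form). The E2F core searched had 4 forms, namely TTCCCGC, the form TTGGCGC, the form TTCGCGC and the form TTGCCGC. Either strand counted, and the window reached 50 bp to each side of the summit.

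The sequences that carry the main patterns follow, 30 bases each on the strand of the gene, from the RefSeq copy of WBcel235, which is the ce11 sequence. The first set shows the E2F core, in capitals, nearest to the summit of 4 of the strongest members that had one.
F48A11.4, chrII:216779-216808, minus strand: aatatttttacTTCCCGCcaaaatggcaag
pdhk-2, chrIII:8741611-8741640, minus strand: cagtgtccgccTTGGCGCatccctcgattt
tasp-1, chrIII:10759265-10759294, plus strand: tgtgacacagcGCGCCAActtgaaaatggc
fbxl-2, chrIII:4757149-4757178, plus strand: catcggaaaatGCGCCAAgcactggctggc

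The second set shows a longer pattern that was read off the strongest members after their sequences had been seen: the T form of the CHR core, any 3 bases, then CC. It is called the composite, and its fixed bases are in capitals.
sec-61.G, chrV:10897393-10897422, minus strand: ttcttaTTTGAAttgCCgccaatggcaatg
ddp-1, chrIII:1859692-1859721, plus strand: ttatcaTTTGAAaaaCCgccgaaaactgtg
F56A8.3, chrIII:13256604-13256633, plus strand: cataaaTTTGAActtCCctccaaaatgcca
pafo-1, chrV:11521582-11521611, plus strand: atacttTTTGAAcacCCgcgcaaaactggt
fbxl-2, chrIII:4757127-4757156, plus strand: tttattTTTGAAtgtCCgccaacatcggaa
rpb-11, chrII:14059918-14059947, plus strand: ttcacaTTTGAAtcaCCgcgcaaaacgaga
wdr-46, chrIV:12372032-12372061, plus strand: ctagaaTTTGAActaCCgcaaaaattaggg
dbt-1, chrII:7945371-7945400, minus strand: ttcgaaTTTGAAaaaCCgccagtttacacg

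The third set shows the E2F core nearest to the summit at 6 DNA replication genes, whose values are given further on.
mcm-7, chrV:4347007-4347036, plus strand: aggaggcaaacGCGCGAAattcgaacggac
mcm-5, chrIII:4291442-4291471, minus strand: gtgaggcgcggGCGCCAAaaattttcaaat
rnr-1, chrIII:9228362-9228391, minus strand: tgcgtctcgttTTCGCGCgttcctctatta
mcm-6, chrIII:9794187-9794216, plus strand: cggtacgcaggTTGCCGCcaaaattgagtt
rfc-2, chrIV:1347213-1347242, plus strand: gaattttaagcGCGCCAAactgattttctt
rpa-1, chrII:7664432-7664461, plus strand: tcggcacacatTTCCCGCaaacatcacatt

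The strongest member by far stood at citk-2. Scores are the authors' values, whose scale is not stated, and they serve here only to rank and describe peaks. The citk-2 peak (WBGene00019087) scored 7157 in the reproducible list, 948 in replicate 1 and 6219 in replicate 2, and its summit lay at −184 bp. The 3 lists were called apart and may be on different scales, so ranks are the fairer guide: this peak ranked 2 in replicate 1 and 1 in replicate 2. Next came cdc-48.1, an AAA ATPase gene of protein degradation (score 5411, summit at −170 bp), which ranked 1 and 5 in the replicate lists. The peak of eelo-2 followed (score 5162, −234 bp), with ranks 7 and 4. All 3 were among the first 10 entries of either replicate.

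The rest of the 20 strongest members lay at genes of many kinds. tba-2 encodes an alpha tubulin (score 4541, summit at −139 bp), and sec-61.G a subunit of the channel that moves proteins into the endoplasmic reticulum (4103, −236 bp). smu-1, a splicing factor gene, scored 3802 at −28 bp, and ddp-1, a gene for mitochondrial protein import, 3650 at −147 bp. pdhk-2, a pyruvate dehydrogenase kinase gene, scored 3600 at −247 bp, and pash-1, which acts in microRNA processing, 3473 at −93 bp. The protease gene tasp-1 scored 3386, the cyclophilin gene cyn-3 scored 3348, the translation initiation factor gene eif-3.C scored 3337 and the RNA polymerase II subunit gene rpb-11 scored 3181. The remaining 7 were F48A11.4 (4219), Y94H6A.3 (3603), F56A8.3 (3362), pafo-1 (3346), T26E3.4 (3311), citk-1 (3217) and fbxl-2 (3182). All 20 had entries in both replicate lists, with ranks of 1 to 151 in replicate 1 and 1 to 37 in replicate 2. Of the 20, 8 had an E2F core, 13 a CHR core, 7 the composite and 4 neither core.

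Scores of members ran from 35.8 to 7157 with a median of 134 (quartiles 67.01 and 484). The median was 133 for the 491 other single-gene promoter peaks, whose summits lay further from the start, 234 for the 652 peaks in promoters of 2 or more genes, and 69.4 for the 1374 autosomal peaks outside promoters. Of the members, 304 (29.8%, interval 27.1% to 32.7%) were in the top 20% of all peaks by score. That share was 26.7% (22.96% to 30.8%) for other single-gene peaks, 37.7% (34.1% to 41.5%) for shared promoters and 5.82% (4.70% to 7.19%) outside promoters. By the median and by this share, members stood above peaks outside promoters and below shared ones, and their interval overlapped that of other single-gene peaks. The 100 strongest peaks in the genome held 55 of the 1021 members and 24 of the 491 other single-gene peaks. They also held 18 of the 652 shared promoter peaks and 3 of the 1374 peaks outside promoters. Relative to the size of each kind, members there came before shared promoter peaks and near other single-gene peaks.

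For a view by strength, the 1021 members were divided by score into 5 groups of 205, 204, 204, 204 and 204, from group 1 (scores of 733 and above) through limits of 195, 99.0 and 59.1 to group 5 (35.8 and above). At each of the 20 strongest members the reproducible score was nearer to that of replicate 2, as at citk-2 (7157, against 948 in replicate 1 and 6219 in replicate 2). The groups may therefore rank peaks largely by replicate 2. The replicates supported these groups unequally. An entry of the replicate 1 list overlapped 868 members (85.0%, interval 82.7% to 87.1%), and one of the replicate 2 list overlapped 1020 (99.9%). With a −log10 q above 2 required in each list, 427 members remained (41.8%): all 205 of group 1, 173 of group 2, 45 of group 3, 3 of group 4 and 1 of group 5. Among the 491 other single-gene peaks the same share was 40.3%, against 56.7% at shared promoters and 12.6% outside promoters.

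**Figure D1:**
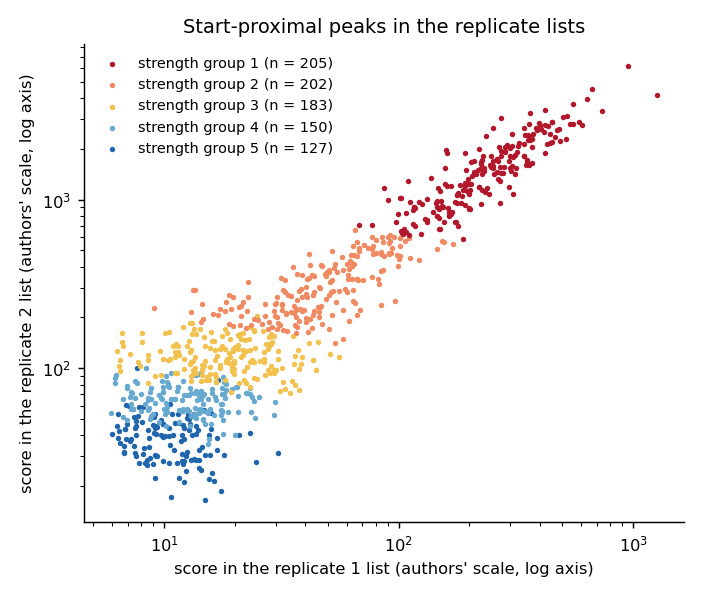
Score of each member in the replicate 1 list (horizontal) and the replicate 2 list (vertical), both on log axes in the authors' units, for the 867 members with an entry in each; colours are the 5 strength groups, cut on the score of the reproducible list. Groups 1 and 2 lie along a rising band, and groups 3 to 5 form a cloud in which the replicate scores do not rise together.

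Across the 867 members with an entry in each list, Spearman's rho between replicate scores was 0.887. This describes peaks of the same 2 libraries and a shared control, which are not independent replicates. Within group 1 it was 0.877 and within group 2 it was 0.723, but in groups 3, 4 and 5 it was −0.06, −0.07 and −0.23. The groups were cut on the score of the combined data, which lowers rho within a narrow group. The summits of both replicates lay within 25 bp of each other at 97.6% of group 1 peaks, 77.7% in group 2, 39.9% in group 3, 24.7% in group 4 and 23.6% in group 5. In group 5, 99.0% of peaks had the commonest width of 336 bp with the summit at the midpoint, and in group 1 it was 0.976% that had this width. Summits of the weak groups are therefore less exact, and the main results measured from the summit are given by group.

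The strongest members with no entry at all in replicate 1 were Y75B12B.11 (score 207 in the reproducible list and 207 in replicate 2), panl-3, a gene of a deadenylase complex (203 and 211), and gid-7 (171 and 167). All members without such an entry were weaker than every peak of group 1. One member, at spr-1 (score 41.7), had no replicate 2 entry and scored 15.2 in replicate 1.

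Summits gathered upstream of the start. Their median distance was −133 bp (quartiles −177 and −64), and the fullest 50 bp bin, from −150 to −101 bp, held 278 summits. The bin from −200 to −151 bp held 219, that from −100 to −51 bp held 147, and that from −50 to −1 bp held 129. From −250 to −201 bp there were 179 single-gene peaks, counting those at −250 bp, which the rule leaves out. Beyond the limit, the bin from −300 to −251 bp held 147 other single-gene peaks. Between −200 and −100 bp lay 61.5% of group 1 summits (interval 54.6% to 67.9%), 55.4% of group 2, 43.6% of group 3, 44.1% of group 4 and 40.7% of group 5 (34.2% to 47.5%). This band was chosen after the distances had been seen. The limits of the range were set by the rule and are no finding.

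**Figure D2:**
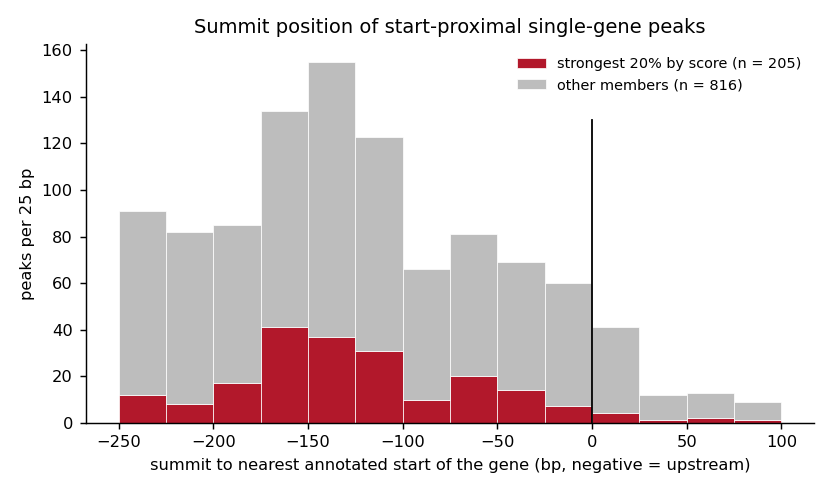
Number of members per 25 bp of distance from the summit to the nearest annotated start, negative upstream, with the 205 strongest in red and the other members in grey, stacked. Both have their fullest bins between −200 and −100 bp, and 75 members lie downstream of the start.

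By annotation, 830 summits lay upstream and outside the body of the gene, 95 upstream of the nearest start in an intron or between alternative starts, and 65 downstream in an untranslated exon. Coding sequence held 5 downstream and 2 upstream of the nearest start. The strongest members downstream of their start were ints-4, a gene of the Integrator complex (score 2337, at 53 bp), Y55F3BR.1 (2305, at 86 bp) and daf-15, the worm's Raptor gene (2158, at 10 bp). At the base just inside the upstream limit stood eif-3.C (3337), the synMuv B gene lin-36 (686), apb-1 (414), spt-16 (55.7) and nhr-135 (54.6), and the last one downstream was tbb-6, a beta tubulin gene (38.02, at 98 bp). Just outside, at −250 bp, stood pcn-1, the PCNA gene (2745), spg-7 (1866), the checkpoint kinase gene chk-1 (1508), rps-2 (68.9), csn-5 (58.8) and F32D1.3 (55.4), and at 103 bp hrpu-1 (1731). The upstream limit thus had both strong and weak peaks on either side.

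E2F cores were more frequent at member summits than in every set of windows they were compared with except the other single-gene peaks. They were present at 198 members (19.4%, interval 17.1% to 21.9%). Windows placed at the median member distance upstream of all 17242 autosomal protein-coding genes, those of members included, held one in 3.58%, and windows displaced by 500 bp upstream of each member summit in 4.995%. The difference from the displaced windows was 14.4 percentage points (95% Newcombe interval 11.6 to 17.2, which treats both sets as independent). With the same cores read backwards, which keeps the base composition, the share was 9.70%, and the difference 9.70 points (6.66 to 12.7). Members had 44.6% GC in these windows, displaced windows 35.7% and all promoters 33.8%.

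Among the other kinds of peak, an E2F core was present at 17.5% of other single-gene peaks (difference 1.88 points, −2.41 to 5.89), 15.3% of shared promoter peaks (4.06 points, 0.295 to 7.66) and 15.6% of peaks outside promoters (3.75 points, 0.680 to 6.87). The first of these differences could not be told from 0 at this number of peaks. Of the 4 forms, TTGGCGC was at 7.15% of members, TTCGCGC at 5.78%, TTCCCGC at 5.29% and TTGCCGC at 3.43%, against 0.882%, 0.905%, 1.201% and 0.806% of all promoters. The core followed peak strength, with 33.7% in group 1 (27.5% to 40.4%), 30.9% in group 2, 14.7% in group 3, 7.35% in group 4 and 10.3% in group 5 (6.83% to 15.2%). Groups 1 and 2 thus overlapped in their intervals, and both stood above groups 4 and 5. Read backwards, the E2F cores were at 18.05%, 10.3%, 5.88%, 10.8% and 3.43% of groups 1 to 5. The backward share was below the forward share in each group except group 4, where it was above 7.35%. It was also highest in group 1 and lowest in group 5, so a fall with strength was not particular to the forward cores. Whether the forward share fell more than the backward one was not tested.

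CHR cores were frequent at the strong members and no more frequent at the weak ones than in promoters at large. Over all members, 390 had one (38.2%, interval 35.3% to 41.2%), against 34.7% of all promoters (difference 3.50 points, 0.481 to 6.60) and 34.3% of displaced windows (3.92 points, −0.252 to 8.07). Read backwards, the cores were at 10.2% of members (difference 28.01 points, 24.5 to 31.5), and at 19.8% of all promoters. By group the backward share was 14.6%, 6.86%, 10.3%, 6.86% and 12.3%, below the forward share in each. Promoters at large had less GC (33.8%) than groups 3, 4 and 5 (44.6%, 44.9% and 42.55%), so they are not matched in composition. In group 1 the share of the CHR core itself was 71.2% (64.7% to 77.0%), in group 2 it was 43.6%, in group 3 it was 27.5%, in group 4 it was 20.6% and in group 5 it was 27.9% (22.2% to 34.5%). Group 1 exceeded group 5 by 43.3 points (34.04 to 51.4), while mean GC was 44.4% in group 1 and 42.55% in group 5. The difference lay in the T form, present at 66.8% of group 1 and 22.1% of group 5, against 30.1% of all promoters. For the C form the shares were 9.27% and 7.35% (difference 1.92 points, −3.58 to 7.46), against 6.77%. Among other kinds of peak, a CHR core was at 32.6% of other single-gene, 37.6% of shared promoter and 34.1% of outside-promoter peaks. In the strongest 20% of each kind, by its own scores, the shares were 65.7%, 61.8% and 48.7% in the same order. A high share at strong peaks was therefore not particular to start-proximal ones.

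Because weak summits are less exact, the shares were also taken within 100 bp of the summit. The E2F core was then at 36.6%, 34.3%, 16.2%, 10.3% and 14.2% of groups 1 to 5, against 6.87% of all promoters, and the CHR core at 85.9%, 68.6%, 46.1%, 47.1% and 45.1%, against 56.8%. Groups 1 and 2 stood above groups 3 to 5 in both windows. At least 1 of the cores lay within 50 bp at 82.4% of group 1 and 31.9% of group 5. Both were present together at 46 peaks of group 1 and 13 of group 5, led by tba-2, F48A11.4, sec-61.G, T26E3.4 and fbxl-2.

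**Figure D3:**
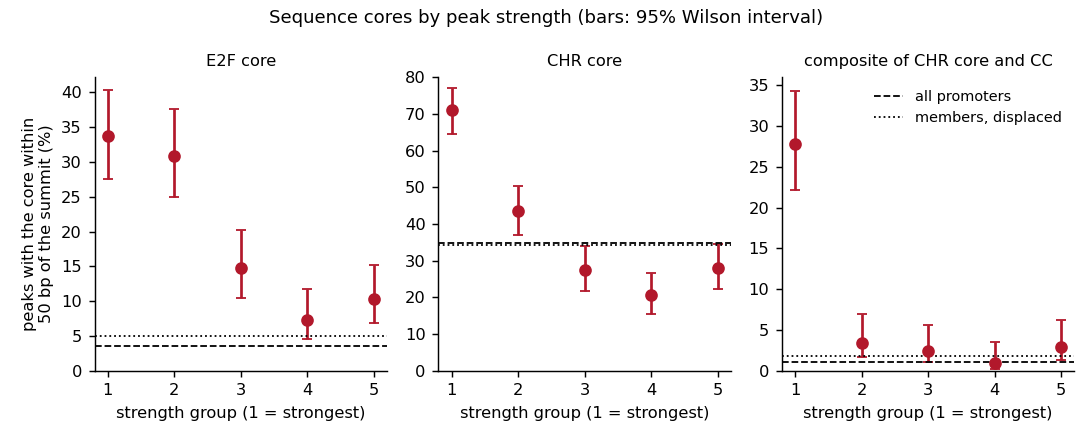
Share of members with an E2F core, a CHR core or the composite within 50 bp of the summit, by strength group (1 is strongest), with 95% Wilson intervals; dashed lines are all autosomal protein-coding promoters and dotted lines windows 500 bp upstream of member summits. From group 1 to group 5 the E2F core goes from 33.7% to 10.3%, the CHR core from 71.2% to 27.9% and the composite from 27.8% to 2.94%.

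The T form had a preferred place. In group 1, 141 copies lay on the gene strand within 100 bp of the summit, and 79 of them (56.03%) were centred from −60 to −20 bp of it, on the side away from the gene. The mirror band from 20 to 60 bp, on the side of the gene, held 28. On the other strand 50 of 92 copies lay in the first band and 14 in the mirror band. In groups 2 to 5 the same 2 bands held 40 and 68 of 218 copies on the gene strand and 48 and 55 of 234 on the other. For gene-strand copies, genes on either strand of the genome showed the same. In group 1 the 2 bands held 41 and 15 of them for genes on the plus strand and 38 and 13 for genes on the minus strand. Copies on the other strand were less alike, with 31 and 3 for genes on the plus strand and 19 and 11 for genes on the minus strand. Both bands were chosen after the positions had been seen.

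The 79 gene-strand copies in that band shared bases beyond the core. Counting from 1 at the first T, position 10 was C in 77.2% and position 11 was C in 75.9% of copies, position 12 was G in 54.4% and position 13 was C in 65.8%. These shares gave the composite, so they describe it and do not test it. Of the 55 copies with CC at positions 10 and 11, 37 went on with GC, as in sec-61.G, ddp-1 and rpb-11 above.

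The composite was within 50 bp of the summit at 77 members (7.54%, interval 6.08% to 9.33%), against 1.12% of all promoters and 1.86% of displaced windows. Group 1 held 57 of them (27.8%), and groups 2 to 5 held 7, 5, 2 and 6 (3.43%, 2.45%, 0.980% and 2.94%). Within 100 bp of group 1 summits there were 58 copies on the gene strand, 55 of them in the band from −60 to −20 bp, and 0 on the other strand. Only gene-strand copies in that band went into the pattern, and profiles by strand had been seen first, so these counts describe it. Of 55 copies, the median place was −31.5 bp from the reproducible summit (range −48.5 to −20.5), −29.5 bp from the replicate 1 summit and −31.5 bp from the replicate 2 summit. They stood at a median of −172.5 bp from the start of the gene.

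Peaks that had no part in building the composite give the fairer comparison, though they too had been viewed. Among the 98 strongest other single-gene peaks, the same band held 21 copies on the gene strand and 1 on the other. In groups 2 to 5 of the members there were 15 copies on the gene strand, 6 of them in the band, and 16 on the other strand. In the strongest 20% of each kind, taken by that kind's own scores, the composite was at 24.24% of other single-gene peaks (interval 16.9% to 33.5%), 16.8% of shared promoter peaks (11.4% to 24.12%) and 9.09% of peaks outside promoters (6.23% to 13.1%). It was therefore not particular to start-proximal peaks.

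Composite and E2F core were each present without the other at many peaks. In group 1, 13 peaks had both, 44 the composite alone, 56 the E2F core alone and 92 neither, with median scores of 1846, 1758, 1676 and 1691. The E2F core was at 33.7% of group 1 as a whole, so most peaks lacked it with or without the composite. In groups 2 to 5, 7 peaks had both, 13 the composite alone, 122 the E2F core alone and 674 neither. Whether the 2 avoid or accompany each other was not tested. Of the 55 copies of the composite in the band, 7 overlapped an E2F core, as at sec-61.G. E2F cores themselves were also placed unevenly in group 1, with 28 of 63 gene-strand copies from −60 to −20 bp and 8 in the mirror band, against 6 and 11 of 29 copies on the other strand.

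**Figure D4:**
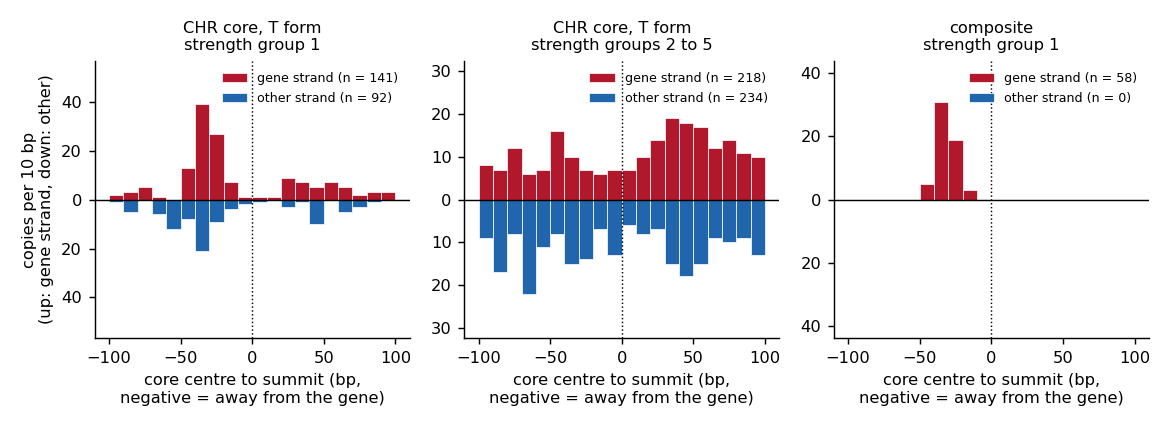
Copies per 10 bp of the T form of the CHR core in group 1 (left) and groups 2 to 5 (middle) and of the composite in group 1 (right), by distance of their centre from the summit along the gene, negative away from the gene; bars above the line are copies on the gene strand and bars below it those on the other strand. In group 1, 79 of 141 gene-strand copies of the T form and 55 of 58 copies of the composite lie from −60 to −20 bp, and the composite has 0 copies on the other strand.

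Other short sequences also differed from all promoters, and other kinds of peak had most of them at like or higher shares. GCGC, which occurs in 2 of the 4 E2F forms, was at 57.7% of members and 12.3% of all promoters, with 77.1% in group 1 and 33.8% in group 5. It was at 60.5% of other single-gene peaks and 66.9% of shared promoter peaks. CTGCGTC was instead at 8.78% of group 1 and 19.6% of group 5 (difference −10.8 points, −17.6 to −4.08), with 1.96% in all promoters. Over all members it was at 13.6%, against 13.03% of other single-gene peaks, 7.06% of shared promoter peaks and 15.4% of peaks outside promoters. GAGAGA was likewise at 13.7% and 33.3% (−19.7 points, −27.5 to −11.5), with 8.46% in all promoters. It was at 22.2% of members, 22.4% of other single-gene peaks, 13.7% of shared promoter peaks and 31.8% of peaks outside promoters. CACGTG was at 0.976% of group 1 and 6.37% of group 5, against 1.96%. Below all promoters were TATAAA (4.21% of members against 13.4%), TGATAA (3.04% against 12.1%) and a run of 8 T (5.88% against 14.1%). CCGCCC was at 4.90% of members and 2.59% of all promoters, but at 7.74% of other single-gene peaks and 7.64% of peaks outside promoters. Which proteins sit at these sequences was not tested.

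Genes of DNA replication had start-proximal single-gene peaks most often of the 18 lists examined. They had them at 18 of 43 (41.9%, interval 28.4% to 56.7%), against 5.86% of all autosomal protein-coding genes, and 9 of the 18 were in group 1. Their median score was 721, against 134 for all members. Of replication genes with any promoter peak, 18 of 36 were members, against 1011 of 2773 over all genes. The same count was 18 of 54 for mitosis and 7 of 29 for repair genes. It was 8 of 18 for cell cycle regulators, 12 of 25 for chromatin genes and 11 of 17 for nuclear hormone receptor genes. Replication genes were thus not first by this measure. Their 41.9% also rests on how often they had a promoter peak of any kind. An E2F core was at 16 of the 18 replication summits and a CHR core at 14, while the composite was at 1. Over all members these shares were 19.4%, 38.2% and 7.54%, and in group 1 they were 33.7%, 71.2% and 27.8%. The core counts of the lists below are to be read beside the same shares. The strongest were psf-3, a gene of the GINS complex (score 2200, 285 in replicate 1 and 1916 in replicate 2), mcm-7, a subunit of the replicative helicase (1938, 227 and 1724), and pole-1, the catalytic subunit of DNA polymerase epsilon (1884, 203 and 1680). The licensing factor gene cdt-1 scored 1124 with its summit at 6 bp.

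The core sequences printed for these genes show the forms in use. mcm-5 (score 708) and rfc-2, a clamp loader gene (259), carried the reverse complement of TTGGCGC, mcm-7 that of TTCGCGC, rnr-1, the large subunit of ribonucleotide reductase (573), TTCGCGC itself, mcm-6 (404) TTGCCGC, and rpa-1, a single-strand binding protein gene (138), TTCCCGC. The 2 replication members without an E2F core were orc-3 (1318), which had a CHR core, and orc-4 (66.0), which had neither. Both encode subunits of the origin recognition complex.

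Mitosis and chromosome segregation genes were members at 18 of 71 (25.35%, interval 16.7% to 36.6%), with E2F cores at 10 and CHR cores at 11. The leading ones were the kinetochore gene kbp-3 (score 1101, 145 in replicate 1 and 953 in replicate 2), the spindle checkpoint gene mdf-1 (1004, 164 and 843) and the centriole gene sas-5 (829, 97.8 and 732). DNA repair and checkpoint genes were members at 7 of 53 (13.2%, 6.55% to 24.8%), and 6 of the 7 had a CHR core and 2 an E2F core. Led by the nuclease gene fan-1 (2653), the checkpoint clamp gene mrt-2 (2319) and brc-1, the worm's BRCA1 (1841), they had 5 in group 1. fan-1 and mrt-2 also carried the composite.

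Cell cycle regulators were members at 8 of 37 (21.6%, interval 11.4% to 37.2%). lin-9, which encodes a MuvB subunit, scored 1693, 158 in replicate 1 and 1533 in replicate 2. The kinase gene cdk-7 scored 340 and the cullin gene cul-4 scored 259, and the CDK inhibitor gene cki-2 (214) carried both cores. Chromatin and synMuv genes were members at 12 of 42 (28.6%, 17.2% to 43.6%), with the highest scores at mes-2, whose human counterpart is the Polycomb enzyme EZH2 (2918), the nucleosome remodeller gene isw-1 (1717) and mes-6, which encodes a partner of MES-2 (772).

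Genes of general cell upkeep were members as well, at shares above the 5.86% of all genes. Among those with any promoter peak, members were 29.7% of splicing, 22.2% of proteasome, 35% of vesicle trafficking and 35.7% of aminoacyl-tRNA synthetase genes. Over all genes with any promoter peak, 1011 of 2773 were members. Splicing and RNA processing genes were members at 11 of 54 (20.4%, interval 11.8% to 32.9%), led by the cyclophilin gene cyn-10 (score 2208), the SR protein gene rsp-6 (1316) and cpsf-1 (422), and 9 of the 11 had a CHR core. Proteasome genes were members at 6 of 33 (18.2%, 8.61% to 34.4%), with rpn-11 (2220), rpt-1 (1118) and rpt-6 (289) first and 0 CHR cores. Vesicle trafficking genes were members at 7 of 39 (17.9%), led by sec-12 (1136), sec-24.1 (1083) and cope-1 (135). Aminoacyl-tRNA synthetase genes were members at 5 of 32 (15.6%, 6.86% to 31.8%), with vars-1 (2103), sars-2 (1342) and fars-3 (70.8) first and 0 E2F cores. At 5 or 6 members, these counts of 0 are too few to set a list apart from all members.

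Ribosomal protein genes of the cytosol and of mitochondria are given apart. Of 79 cytosolic ones, 70 had a promoter peak of some kind but 8 were members (10.1% of the list, interval 5.22% to 18.7%), led by rpl-24.2 (score 3145), ubl-1 (607) and rpl-25.2 (406), at a median of −187 bp. Of 66 mitochondrial ones, 36 had a promoter peak and 12 were members (18.2%, 10.7% to 29.1%), at a median of −123.5 bp, led by mrps-16 (2814), mrpl-28 (2350) and mrpl-55 (1965). Those 3 and 3 others of the 12 carried an E2F core, against 1 of the 8 cytosolic ones.

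Lists of differentiated tissues were mostly too short to be told from the 5.86% of all genes. Muscle genes had 0 of 20 (interval 0% to 16.1%), intestine genes 0 of 21 (0% to 15.5%) and homeobox genes 1 of 63 (1.59%, 0.281% to 8.46%), ceh-83 at 70.8. Neuron genes had 3 of 31 (9.68%, 3.35% to 24.9%), at ric-3 (score 65.4), unc-119 (58.1) and unc-33 (56.7). The strain carries added unc-119 sequence in its transgene, which cannot be told apart from the native gene in these lists. Chemoreceptor genes had 1 of 1325 (0.0755%, 0.0133% to 0.426%), srh-2 at 45.3, and cuticle collagens 1 of 143 (0.699%, 0.124% to 3.85%), col-103 at 39.4, both with intervals below the share of all genes. Nuclear hormone receptor genes had 11 of 246 (4.47%, 2.51% to 7.83%), near the 5.86% of all genes, led by nhr-256 (83.5), nhr-78 (67.01) and nhr-80 (54.8), and none of the 11 was in groups 1 to 3.

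**Figure D5:**
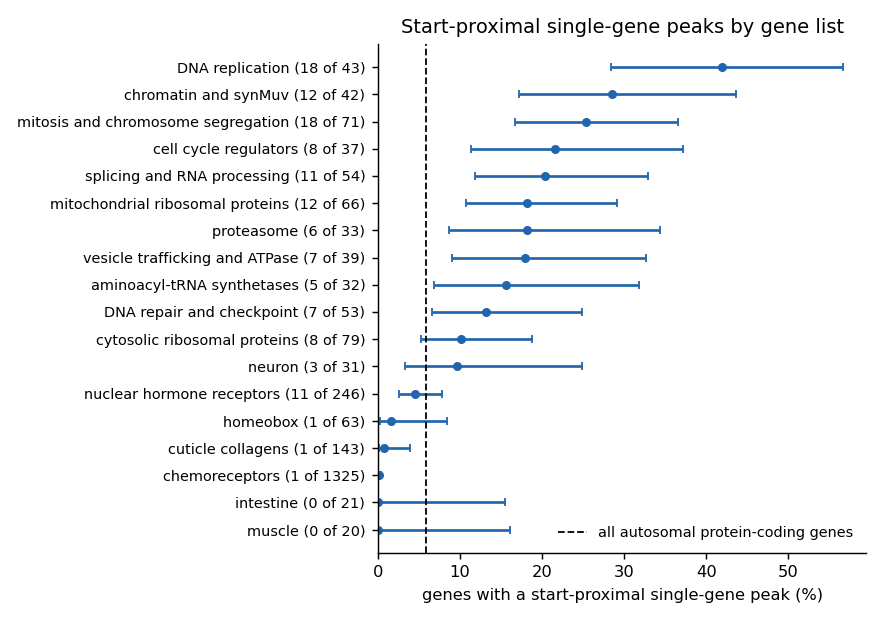
Share of the autosomal genes of each of 18 lists that had a start-proximal single-gene peak, with 95% Wilson intervals and the counts beside each name; the dashed line is the 5.86% of all autosomal protein-coding genes. DNA replication genes stand highest at 41.9%, and chemoreceptor genes are at 0.0755%.

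The lists cover a small portion of the members: 129 of the 1011 genes were in any list and 882 in none, and 309 had only a sequence name. Over the chromosomes, members made up 32.4% of the peaks of chromosome II, 29.98% of V, 29.0% of I, 26.96% of III and 26.7% of IV.

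The annotated starts of member genes were compared with those of other genes. In C. elegans many transcripts receive a spliced leader, and the annotated start is then a splice acceptor, usually after TTTCAG, rather than the place where transcription began. TTTCAG lay within 15 bp before the start of 223 of the 1011 member genes (22.1%, interval 19.6% to 24.7%), of 31.7% of the genes of other single-gene peaks (27.7% to 36.0%) and of 14.04% of all autosomal protein-coding genes (13.5% to 14.6%). For such genes the summit is measured from the acceptor. A single annotated start was present at 53.6% of member genes, 53.9% of the genes of other single-gene peaks and 72.4% of all, and a gene with several starts can meet the rule at any of them. The nearest upstream neighbour was on the same strand for 52.6% of member genes (49.5% to 55.7%). The share was 56.9% for genes of other single-gene peaks (52.4% to 61.3%) and 54.5% for all genes. Median distances were 940, 1259 and 943 bp in the same order. The rule leaves out summits in the promoter of another gene, which bears on both values.

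Genes that encode no protein also lay under some peaks. A gene annotated as ncRNA overlapped 48 of the 1021 members (4.70%), against 9.16% of other single-gene peaks, 7.82% of shared promoter peaks and 14.9% of peaks outside promoters. A tRNA gene overlapped 5 members (0.490%), against 2.04%, 0.153% and 6.11% in the same order, and a snoRNA gene overlapped 7 (0.686%), against 1.63%, 0.460% and 4.22%. A piRNA gene overlapped 5 members. No snRNA or microRNA gene overlapped a member. In group 1, 0 of 205 peaks overlapped a tRNA or snoRNA gene.

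Of the 10 genes with 2 member peaks, the 5 with the strongest were Y73B6BL.29 (scores 2553 and 37.7), dot-1.1, a histone methyltransferase gene (1689 and 134), lep-2 (1065 and 69.7), gei-4 (254 and 107) and mtg-1 (170 and 40.4). Both lep-2 peaks overlapped the same entries of the replicate lists, so they are not separate measurements there.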

How the data were processed

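The authors called peaks and background on each replicate's alignment and on both pooled, with a control alignment, and derived a list thresholded by the irreproducible discovery rate from these, per the text deposited beside each library. The aligner, peak caller and threshold are not given in the sources used here. The deposited score (seventh column) has no stated scale. The −log10 q-values in the ninth column and the summit offsets in the tenth are the authors' deposited values too. The ce11 lists were used, and lists in the older build, signal tracks and the control were not used here.

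Genes and starts came from Ensembl release 115 (WBcel235). Summits were assigned, sequence windows searched and intervals computed with Python 3.11.15, numpy 2.4.6 and scipy 1.17.1, and the search was tested on simulated sequence. A replicate entry counted at an overlap of at least 1 bp, and the highest-scoring one was taken. The members and gene lists were chosen with earlier results of these data known. The composite, its band, the distance band, the strength groups and the split of the CHR core were chosen after seeing the sequences, as were the replication genes whose sequences are printed, wdr-46, dbt-1, spr-1, cki-2, cdt-1, orc-3 and orc-4. Other genes named were the 20 strongest members, the 3 strongest in each list, those downstream of the start, those with both cores or no replicate 1 entry, those nearest the limits and those with 2 peaks. Only some of the sequences extracted are printed, and 1 is not reported here. No p-value was computed over regions or genes. Where a difference is read from its interval, the units are peaks or genes of the same 2 libraries.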

Additional observations from a re-analysis of the deposited data

How the results depend on the processing

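The number of members was 1021 and ranged from 780 to 1014 with the strongest entries of a single replicate list. It was 602 in the stronger 50% of peaks and 427 when both replicate lists had to hold an entry at −log10 q above 2, an alternative chosen after seeing the data. Both keep fewer peaks by construction. The median distance, −133 bp, was −141 bp in those 427 and ranged from −141 to −130 bp with 1 replicate list. The median score, 134, was 345 and 689 in the 2 selections, which are made on strength, and 31.0 and 118 in the replicate 1 and 2 lists, which need not share a scale.

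The E2F core share, 19.4%, was 26.6% in the stronger 50%, 31.6% in the 427, 10.6% within 25 bp and 22.3% within 100 bp. It ranged from 18.9% to 19.6% with 1 replicate list. The CHR core share, 38.2%, was 47.8%, 57.1%, 12.2% and 58.6% in the same order, and ranged from 37.4% to 45.6% with 1 replicate list. A wider window holds more of any sequence. Beyond these, the cause was not tested. The share with a replicate 1 entry, 85.0%, was 74.3% with an overlap of at least 50% of the peak, 41.8% at −log10 q above 2 and 96.2% in the stronger 50%. The composite share of group 1, 27.8%, was 4.39% within 25 bp, since its copies lie further out. With 1 start per gene or the midpoint for the summit, the count stayed within 1.5 times and the core shares within their interval. Other limits and a wider promoter were run for the count alone, which stayed within 1.5 times.

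No paired analysis was possible because the series has 1 group. Depth is unknown, weak summits are inexact, and the 5 strength groups come from the same 2 libraries.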
